A study of Homo sapiens with 30 samples.

Results

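The BCL2 family genes that decide on mitochondrial outer membrane permeabilization were followed across the 30 RNA-seq libraries of the series. The 8 members were taken by gene name: the effectors BAX, BAK1 and BOK, and the prosurvival genes BCL2, BCL2L1, BCL2L2, MCL1 and BCL2A1. They are 8 of the 39359 genes in the count table, and 7 of them were among the 21335 genes with enough reads to be tested. BCL2A1 was the member left out of testing, and its values are given without one.

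The libraries were total RNA from H1299 cells, a human lung carcinoma line that carries no p53, at passages 7 to 12. The cells were transiently transfected, sorted for the GFP that every vector co-expresses, and collected 6 h or 24 h after transfection, with 3 libraries per vector and time. The control vector, pGFP, expresses GFP alone. The vectors p53 WT and p53 RW add wild type p53 or a mutant with 1 amino acid changed in the DNA-binding domain. The vector p53 O6-meG carries the wild type sequence with 1 O6-methylguanine, a methylated base that can be misread by RNA polymerase so that part of the transcripts encode the RW mutant, a process called transcriptional mutagenesis (TM). In p53 TM cells the same O6-meG vector was used together with 10 µM O6-benzylguanine (O6-bzG), which inactivates the repair protein AGT that removes the methyl group. O6-bzG was given only with the O6-meG vector, so in each comparison of p53 TM with p53 WT or pGFP the lesion and the inhibitor cannot be told apart. In p53 TM against p53 O6-meG, blocked repair of the lesion cannot be told apart from any other effect of O6-bzG. The p53 genes were driven from plasmids by tetracycline-responsive promoters. In bulk RNA such as this, fewer cells expressing a gene and less of its RNA per cell cannot be told apart.

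The BCL2 family controls the mitochondrial step of apoptosis. When activated, BAX and BAK, the product of BAK1, form pores in the outer mitochondrial membrane and release cytochrome c, while the prosurvival proteins hold the effectors and their BH3-only activators in check. p53 is known to transactivate BAX and several BH3-only genes, and MCL1 is a short-lived protein whose level is set in large part by its turnover. RNA levels do not measure pore formation, protein or cell death.

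Total counts ranged from 32302699 to 71950532 per library, with a median of 44424643. The p53 target CDKN1A, which encodes the cell cycle inhibitor p21, was at 34.1 to 50.2 CPM (counts per 1000000 reads, scaled by edgeR's TMM factors) in pGFP libraries and 242 to 262 CPM in p53 WT libraries at 6 h. A pair of 6 h libraries, replicate 2 of p53 O6-meG and replicate 2 of p53 TM, have titles that name 1 group first and the other in parentheses. They are labelled here by the name in parentheses, while the deposited counts carry the name given first. The library labelled p53 TM had 10698 CDKN1A reads and the library labelled p53 O6-meG had 2037. These reads go against the names in parentheses and with the names given first. CDKN1A responds to the p53 effect under study, so its reads cannot settle which name is right. Because the names conflict, these 2 libraries were left out of the tests and n is 2 for those groups at 6 h. Their values are given separately. Of the epithelial markers, KRT8 (111 to 181 CPM) and KRT18 (272 to 720 CPM) were high and EPCAM and CDH1 stayed under 0.381 CPM, and VIM was at 1934 to 3581 CPM. The lung lineage markers summed to at most 1.90 CPM in the tested libraries of any group. Of 4 measured markers of other cell types, PTPRC, PECAM1 and COL1A1 reached at most 1.99 CPM, while the globin gene HBB lay between 162 and 1196 CPM. HBB made up almost all of that list's sum, which at 6 h was 544 to 598 CPM in pGFP, 422 to 497 in p53 WT, 340 to 436 in p53 RW, 163 to 292 in p53 O6-meG and 313 to 346 in p53 TM cells, over all libraries as labelled. Its part in the results was not tested.

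BAX (ENSG00000087088.19, chr19:48954815-48961798 on the plus strand of hg38) and BAK1 (ENSG00000030110.12, chr6:33572547-33580293, minus strand) are the members that moved most with p53, and their regulatory sequence is shown for that reason. p53 binds pairs of half-sites, each of 3 purines, C, A or T, A or T, G and 3 pyrimidines. The 250 bases upstream of the transcription start follow, from the RefSeq promoter table on GRCh38.p14, with any exact half-site in capitals. The BAX window is chr19:48954625-48954874 and the BAK1 window is chr6:33580277-33580526.
BAX: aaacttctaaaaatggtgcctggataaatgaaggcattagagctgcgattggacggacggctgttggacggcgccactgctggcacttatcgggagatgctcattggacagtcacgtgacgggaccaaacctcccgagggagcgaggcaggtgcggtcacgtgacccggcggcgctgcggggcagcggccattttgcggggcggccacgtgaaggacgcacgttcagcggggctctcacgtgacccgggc
BAK1: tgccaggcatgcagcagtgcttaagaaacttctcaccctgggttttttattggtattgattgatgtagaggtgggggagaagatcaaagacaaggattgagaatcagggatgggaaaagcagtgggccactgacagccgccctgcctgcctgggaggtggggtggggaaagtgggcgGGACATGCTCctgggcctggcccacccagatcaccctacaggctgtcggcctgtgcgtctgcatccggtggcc
The BAK1 window holds 1 exact half-site, GGACATGCTC, starting 73 bases before the transcription start, at chr6:33580340-33580349. The BAX window holds none, also with 1 mismatch outside the C and G. Among all 35116 promoters of that table, each of 300 bases with both strands searched, 6.63% hold an exact half-site and 45.1% hold one with up to 1 mismatch. A pair of half-sites with no spacer and at most 2 mismatches was also searched within 1000 bases of each start in hg38, a search added after the BAX values were known. Of the 6 members with a start in that table, BAX was the 1 with a match, in intron 1, 338 bases after the start, at chr19:48955213-48955232. MCL1 and BCL2L2 had no start there and were not searched.
BAX intron 1: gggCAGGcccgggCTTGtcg
The capitals mark the C and G cores with the bases between them. Of all 35116 starts, 1.57% had such a match. Of the other 4 members with a promoter in the table, BOK, BCL2L1 and BCL2A1 had half-sites with 1 mismatch and no exact one, and BCL2 had none. A letter match is a description and does not show binding.

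The first question was how wild type p53 moved the effectors. BAX and BAK1 rose under p53 WT at both times and BOK did not pass the test at either. In pGFP cells BAX was at 27.7, 27.8 and 28.1 CPM at 6 h, and in p53 WT cells at 56.6, 55.8 and 61.1 CPM. All p53 WT libraries lay above all controls, by a log2 fold change of 1.05 (SE 0.10, adjusted P = 1.18e-08), a 2.08-fold rise. At 24 h BAX was at 25.4, 28.6 and 27.2 CPM in pGFP and at 81.5, 86.8 and 71.9 CPM in p53 WT cells. The groups were again separate, with a log2 fold change of 1.56 (SE 0.10, adjusted P = 6.53e-12), or 2.96-fold.

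BAK1 stood at 33.7, 31.0 and 30.1 CPM in pGFP and at 76.0, 74.7 and 74.3 CPM in p53 WT cells at 6 h. These groups did not overlap, and the log2 fold change was 1.25 (SE 0.14, adjusted P = 3e-07), or 2.37-fold. After 24 h the pGFP libraries gave 27.6, 30.1 and 32.7 CPM and the p53 WT libraries 104, 102 and 81.3 CPM for BAK1. Again every p53 WT library was above every control, with a log2 fold change of 1.67 (SE 0.14, adjusted P = 8.28e-10), or 3.19-fold. The BAX and BAK1 rises kept their call under all 14 alternatives at each time.

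BOK (ENSG00000176720.5, chr2:241551424-241574131, plus strand), an effector-like family member controlled mainly at the protein level, ranged from 30.8 to 33.9 CPM in pGFP and from 31.4 to 34.1 CPM in p53 WT cells at 6 h, so the groups overlapped. At 24 h the ranges were 25.2 to 32.1 and 22.5 to 33.1 CPM, with a log2 fold change of -0.01 and a 95% interval of -0.31 to 0.30. On the linear scale that interval runs from 0.805-fold to 1.23-fold.

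Among the prosurvival genes, MCL1 (ENSG00000143384.12, chr1:150560895-150579738, minus strand) rose slightly under p53 WT. At 6 h MCL1 was at 282, 262 and 284 CPM in pGFP and at 330, 320 and 306 CPM in p53 WT cells. The groups did not overlap, but the difference was small, with a log2 fold change of 0.21 (SE 0.07, adjusted P = 0.0476). This 6 h call did not hold under 10 of 14 alternatives, with an adjusted P of up to 0.302 when no filter on low counts was used. It was lost on leaving out any 1 of the 6 libraries compared, with log2 fold changes of 0.16 without p53 WT replicate 1, 0.17 without pGFP replicate 2, 0.20 without p53 WT replicate 2, 0.22 without pGFP replicate 1, 0.23 without pGFP replicate 3 and 0.24 without p53 WT replicate 3. At 24 h MCL1 was at 263, 296 and 274 CPM in pGFP and at 317, 348 and 334 CPM in p53 WT cells. These were separate too, with a log2 fold change of 0.26 (SE 0.07, adjusted P = 0.00319), a 1.20-fold rise, lost only with no filter on low counts (adjusted P = 0.169).

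BCL2, BCL2L1 and BCL2L2 did not pass the test under p53 WT at either time. BCL2 (ENSG00000171791.12, chr18:63123346-63320128, minus strand), the founding prosurvival member, was low, with a mean of 9.03 CPM in pGFP and 8.99 CPM in p53 WT cells at 6 h and of 4.54 and 4.91 CPM at 24 h. BCL2L1 (ENSG00000171552.12, chr20:31664452-31723989, minus strand), which encodes BCL-XL, had means of 58.2 CPM in pGFP and 56.9 CPM in p53 WT cells at 24 h, with a log2 fold change of -0.03 (95% interval -0.31 to 0.24). BCL2L2 (ENSG00000129473.9, chr14:23298790-23311751, plus strand), which encodes BCL-w, had means of 18.9 and 18.8 CPM, with a log2 fold change of -0.01 (95% interval -0.20 to 0.18). Over all 12 comparisons between vectors, the log2 fold changes of BOK, BCL2L1 and BCL2L2 stayed between -0.29 and 0.21, the lowest adjusted P was 0.378 and no 95% interval reached beyond -0.63 or 0.55.

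The 3 members that rose under p53 WT at 6 h were 3 of 7 tested, where 8.68% of all genes tested rose. At 24 h the same 3 genes rose, against a background of 20.5% of genes. The median log2 fold change of the 7 members was 0.06 at 6 h and 0.11 at 24 h, beside 0.02 and 0.01 over all genes tested. The plot of CPM by library shows all 8 members.

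**Figure D1:**
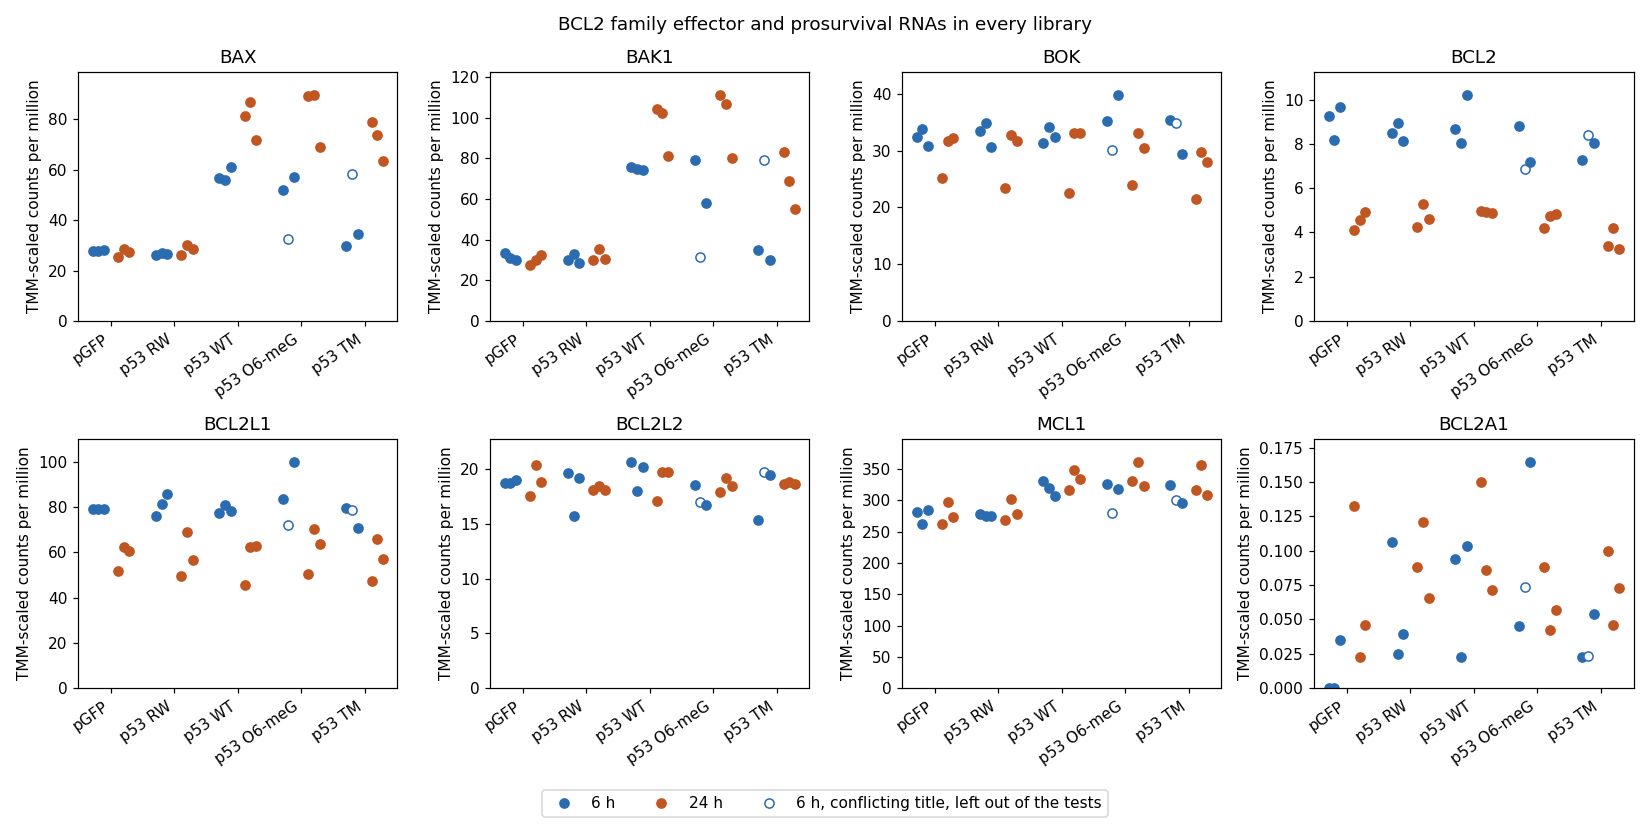
TMM-scaled CPM of each member (y axis, from 0) by vector (x axis), with 1 point per library, 6 h in blue and 24 h in orange. BAX and BAK1 are high in p53 WT and p53 O6-meG cells at both times and in p53 TM cells at 24 h, and the open points are the 2 libraries at 6 h with conflicting titles.

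BCL2A1 (ENSG00000140379.7, chr15:79960892-79971196, minus strand), a prosurvival gene best known from blood cells, was at or near the limit of detection. It had at most 7 reads in any library, 0.165 CPM at the highest, and was at 0 in pGFP replicates 1 and 2 at 6 h. A count of 0 allows up to 3 reads, or 0.0586 and 0.0642 CPM without TMM scaling in those libraries, for counting error only. No difference between vectors could be shown at this depth.

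Relative to transcript length, MCL1 was the most abundant member in every group. In pGFP cells at 24 h its mean was 44.6 CPM per kilobase of merged exon, followed by BCL2L1 (13.9), BAK1 (13.6), BOK (11.1), BAX (10.5), BCL2L2 (3.91), BCL2 (0.36) and BCL2A1 (0.067). The ranges of BCL2L1 and BAK1 overlapped there, as did those of BOK and BAX. In p53 WT cells at 24 h BAK1 (43.4 CPM per kilobase) and BAX (31.0) stood between MCL1 (53.5) and BCL2L1 (13.6), and neither overlapped its neighbours. MCL1 made up 63.8% to 77.3% of the summed prosurvival CPM per kilobase, with a median of 69.8%. These levels assume that all merged exons are expressed.

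The summed CPM per kilobase of BAX, BAK1 and BOK was set over that of the 5 prosurvival genes. This ratio was 0.548 ± 0.026 (SD, n = 3) in pGFP and 0.914 ± 0.032 in p53 WT cells at 6 h. At 24 h it was 0.560 ± 0.030 in pGFP and 1.20 ± 0.14 in p53 WT cells, and ranges of pGFP and p53 WT did not overlap at either time. In p53 TM cells the ratio was 0.542 and 0.549 in the 2 libraries at 6 h and 0.986 ± 0.143 (SD, n = 3) at 24 h, where the range of 0.891 to 1.15 overlapped that of p53 WT (1.05 to 1.32). Within a replicate number p53 TM had the lower ratio in 3 of 3 pairs with p53 WT at 24 h, 1.15 against 1.32, 0.916 against 1.22 and 0.891 against 1.05. The ratio compares RNA and no test was run on it, because 3 libraries against 3 cannot give an exact permutation p below 0.10.

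**Figure D2:**
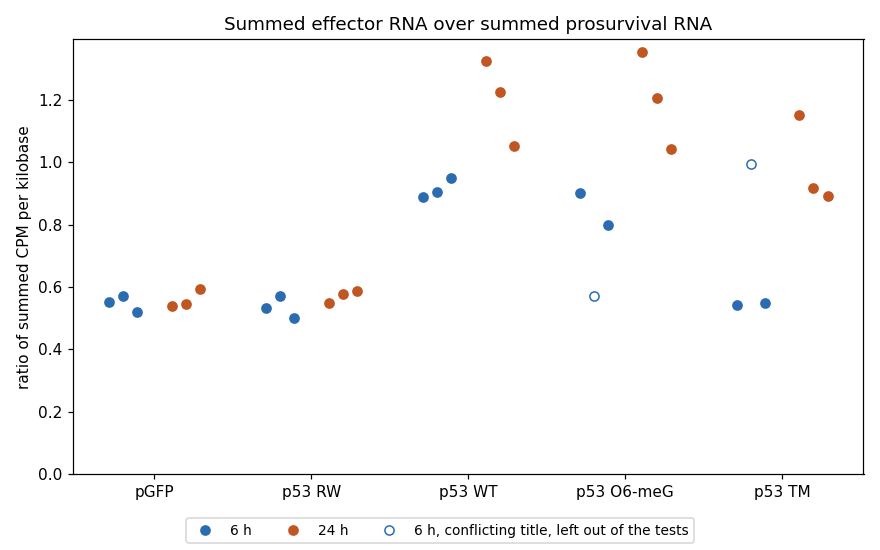
Summed CPM per kilobase of BAX, BAK1 and BOK divided by that of BCL2, BCL2L1, BCL2L2, MCL1 and BCL2A1 (y axis, from 0), by vector (x axis), with 1 point per library. The ratio is near 0.55 in pGFP and p53 RW cells at both times and near 1.20 in p53 WT and p53 O6-meG cells at 24 h.

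The second question was whether the RW mutant had any effect of its own on these genes. None of the 7 tested members was called in p53 RW against pGFP at 6 h or at 24 h by edgeR or DESeq2, and none had an unadjusted p under 0.05, while 0.00469% of all genes, 1 gene, was called at each time. BAX was at 26.2, 27.2 and 26.8 CPM in p53 RW cells at 6 h, each below the controls, with a log2 difference of -0.06 (95% interval -0.26 to 0.14). At 24 h BAX lay between 26.3 and 30.2 CPM and BAK1 between 29.8 and 35.4 CPM, both overlapping pGFP. The 95% intervals at 24 h leave room for rises of up to 0.27 for BAX and 0.37 for BAK1 on the log2 scale.

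The third question was how the vector with the lesion, with repair active, compared with pGFP. In p53 O6-meG cells at 6 h BAX was at 52.1 and 57.3 CPM and BAK1 at 79.4 and 57.9 CPM, all above the pGFP libraries. The log2 fold changes were 0.97 for BAX (SE 0.11, adjusted P = 4.74e-07) and 1.12 for BAK1 (SE 0.15, adjusted P = 1.29e-05). These were 2 of 7 members tested, where 4.32% of all genes rose. Both calls were lost when the libraries with conflicting titles were put in as labelled (log2 fold changes of 0.76 and 0.83, adjusted P = 0.0566 and 0.171). Over all genes that grouping called 73, from 1035. The BAX and BAK1 calls were both kept when those libraries were grouped by the name given first. MCL1 was at 326 and 319 CPM, above the controls, with a log2 difference of 0.22 that missed the threshold (adjusted P = 0.0964).

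At 24 h the p53 O6-meG libraries gave 89.4, 89.9 and 69.1 CPM for BAX and 111, 107 and 80.1 CPM for BAK1. MCL1 was at 331, 362 and 323 CPM, and for all 3 genes these libraries lay above the controls. The log2 fold changes over pGFP were 1.61 (adjusted P = 5.31e-12), 1.72 (adjusted P = 6.62e-10) and 0.29 (adjusted P = 0.00187). They are 3 of 7 members tested, against 18.1% of all genes rising. The MCL1 call was lost with no filter on low counts (adjusted P = 0.105).

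The central comparison was with p53 TM, in which repair was blocked. At 6 h none of the members passed the test against pGFP, by edgeR or DESeq2, where 0.192% of all genes tested rose. BAX was at 29.9 and 34.6 CPM in the 2 p53 TM libraries, both above the 3 controls, with a log2 difference of 0.21 (95% interval -0.01 to 0.43, adjusted P = 0.854). BAK1 was at 34.8 and 30.2 CPM and overlapped the controls, with a log2 difference of 0.04 (95% interval -0.28 to 0.36). MCL1 was the 1 member with an unadjusted p under 0.05, at 324 and 296 CPM and a log2 difference of 0.17 (adjusted P = 0.805).

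Against p53 WT at 6 h both effectors were lower in p53 TM cells. BAX fell by 0.84 on the log2 scale (SE 0.11, adjusted P = 5.4e-06) and BAK1 fell by 1.21 (SE 0.16, adjusted P = 6.48e-06), and for both genes every p53 TM library was below every p53 WT library. These 2 of 7 members stand beside 8.14% of all genes that were lower. Against p53 O6-meG, the same vector with repair active, BAX fell by 0.76 (adjusted P = 0.000141) and BAK1 fell by 1.08 (adjusted P = 0.000165), where 3.37% of all genes were lower. The calls in both comparisons were lost when the conflicting libraries were included as labelled. Over all genes, calls then fell from 2329 to 16 against p53 WT and from 874 to 0 against p53 O6-meG. The BAX and BAK1 calls were kept when each of those libraries was put in the group that its title names first. With the libraries as labelled, the log2 differences were -0.50 for BAX and -0.64 for BAK1 against p53 WT, and -0.21 and -0.23 against p53 O6-meG.

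By 24 h the effectors had risen over pGFP in p53 TM cells as well. BAX was at 79.1, 73.7 and 63.5 CPM and BAK1 at 83.3, 68.8 and 55.1 CPM, all above the controls. The log2 fold changes were 1.41 for BAX (SE 0.10, adjusted P = 1.21e-10) and 1.20 for BAK1 (SE 0.14, adjusted P = 8.98e-07). MCL1, at 316, 356 and 308 CPM, was also above all controls, with a log2 fold change of 0.23 (adjusted P = 0.0232). These are 3 of 7 members tested, and 9% of all genes rose. The MCL1 call was lost under 7 of 14 alternatives, among them leaving out pGFP replicate 1 (0.20), pGFP replicate 3 (0.22) or p53 TM replicate 2 (0.17).

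**Figure D3:**
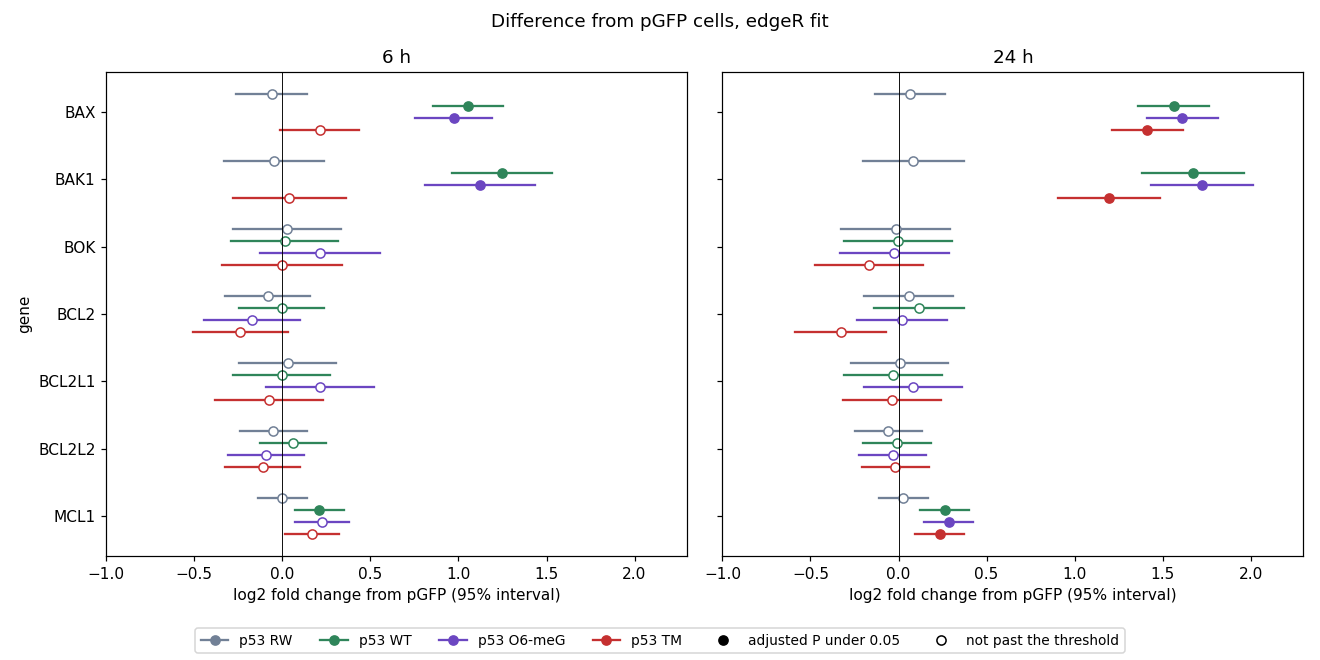
Log2 fold change from pGFP at the same time (x axis) for each tested member (y axis), with 95% intervals from the edgeR fit. Filled points have an adjusted P under 0.05. BAX, BAK1 and MCL1 lie to the right of 0 at 24 h with every vector other than p53 RW, while BOK, BCL2L1 and BCL2L2 have intervals that include 0 throughout.

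At 24 h BAK1 and BCL2 were lower in p53 TM than in p53 WT cells, and BAX did not pass the test. BAK1 fell by 0.48 on the log2 scale (SE 0.14, adjusted P = 0.0132), although 1 p53 TM library, at 83.3 CPM, lay above the lowest p53 WT library, at 81.3 CPM. BCL2 was at 3.41, 4.19 and 3.27 CPM in p53 TM and at 4.97, 4.91 and 4.86 CPM in p53 WT cells, separate groups that differed by -0.44 (SE 0.13, adjusted P = 0.0125). BAX differed by -0.15 (95% interval -0.35 to 0.04, adjusted P = 0.287). The 2 members called are 2 of 7, beside 11.9% of all genes that were lower.

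Neither call held under all alternatives. The BAK1 call was lost without p53 TM replicate 3 (-0.34, adjusted P = 0.106), p53 WT replicate 1 (-0.40, adjusted P = 0.0684) or p53 WT replicate 2 (-0.43, adjusted P = 0.0547), and the BCL2 call without p53 TM replicate 3 (-0.37, adjusted P = 0.076). Both were lost when only these 2 groups were fitted (adjusted P = 0.0974 for BAK1 and 0.108 for BCL2). With the replicate number as a block, both calls were kept and BAX was again not called. Over all genes, that block raised the calls in p53 TM against p53 WT at 24 h from 4520 to 7888 of 21335. BCL2 rested on 136 to 228 reads per library in these groups.

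Against p53 O6-meG at 24 h BAK1 fell by 0.53 (SE 0.14, adjusted P = 0.0136) and was the 1 member called of 7, beside 6.58% of all genes that were lower. BAX differed by -0.20 (adjusted P = 0.199) and BCL2 by -0.35 (adjusted P = 0.0823). Libraries with the same replicate number deviated together at 24 h. With the replicate number as a block all 3 were called, BAX at -0.20 (adjusted P = 0.0371), BAK1 at -0.53 (adjusted P = 0.000378) and BCL2 at -0.35 (adjusted P = 0.0286). The block raised calls over all 21335 genes as well, from 2144 (740 of them higher) to 5391 (2159 higher). With the same block BCL2 was also lower in p53 TM than in pGFP cells, by -0.33 (adjusted P = 0.0397, against 0.107 without it). Over all genes, 4620 were called there in place of 2280. The unblocked BAK1 call was lost without p53 O6-meG replicate 1 (-0.44), p53 O6-meG replicate 2 (-0.47), p53 TM replicate 2 (-0.53) or p53 TM replicate 3 (-0.39). BAX gained a call without p53 O6-meG replicate 3 (-0.32), and BCL2 gained one without p53 TM replicate 2 (-0.47).

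Within a replicate number, BAK1 in p53 TM cells was 79.7%, 67.2% and 67.8% of its p53 WT level at 24 h, and 74.8%, 64.3% and 68.8% of its p53 O6-meG level. BAX was 97.1%, 84.9% and 88.3% of p53 WT. For both genes p53 TM was therefore the lower library in 3 of 3 numbered pairs with p53 WT. Replicate 3 was the lowest library of BAX and of BAK1 in p53 WT, p53 O6-meG and p53 TM cells alike.

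To set the effectors on 1 scale, each p53 TM library's rise over the pGFP mean was taken as a percentage of the mean rise in p53 WT cells at the same time. For BAX it was 6.77% and 22.4% at 6 h and 98.2%, 88.1% and 68.7% at 24 h. BAK1 gave 7.37% and -3.17% at 6 h and 80.6%, 58.6% and 37.9% at 24 h. In p53 O6-meG cells the BAX shares were 80.9% and 98.0% at 6 h. Their 24 h shares were 118%, 119% and 79.3%. The 24 h p53 TM libraries thus lay above both 6 h libraries for each gene. The MCL1 shares (111% and 46.4% at 6 h, 69.3%, 141% and 54.7% at 24 h) spread too widely to order the times.

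**Figure D4:**
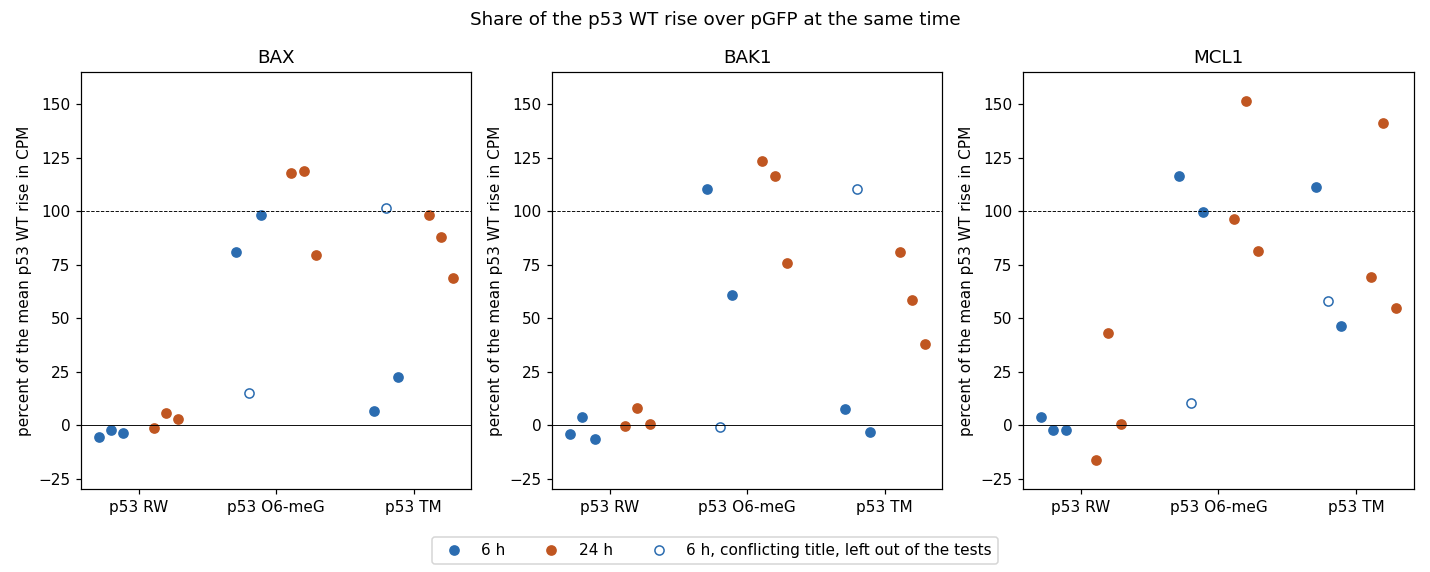
Rise over the pGFP mean in each library as a percentage of the mean p53 WT rise at the same time (y axis), for BAX, BAK1 and MCL1, by vector (x axis), with 6 h in blue and 24 h in orange. In p53 TM cells the tested libraries of BAX move from at most 22.4% at 6 h to at least 68.7% at 24 h, and the open points are the libraries with conflicting titles.

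The changes with time were tested as such. The p53 WT effect on BAX was larger at 24 h than at 6 h by 0.51 on the log2 scale (SE 0.14, adjusted P = 0.0231), and BAX was the 1 of 7 members called, where 6.51% of all genes changed in either direction. For BAK1 the corresponding value was 0.43 (95% interval 0.03 to 0.83, adjusted P = 0.23). The BAX call was lost without p53 WT replicate 1 or 2 at 6 h (0.48 and 0.49), p53 WT replicate 1 or 2 at 24 h (0.48 and 0.45) or pGFP replicate 1 at 24 h (0.47). The difference between p53 TM and p53 WT shrank from 6 h to 24 h by 0.69 for BAX (SE 0.14, adjusted P = 0.0087) and by 0.73 for BAK1 (SE 0.21, adjusted P = 0.0814), in a test that was added after the data were seen, and BAX was again 1 of 7 members called, beside 1.45% of all genes. Its call was lost without p53 TM replicate 1 at 6 h (0.59, adjusted P = 0.134), when only the groups compared were fitted (0.69, adjusted P = 0.0581), and with the conflicting libraries as labelled (0.35, adjusted P = 0.742). BAK1 was called with the replicate block (0.72, adjusted P = 0.0048) and without p53 TM replicate 3 at 24 h (0.87, adjusted P = 0.0162).

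BCL2 and BCL2L1 changed with time in cells without p53. In pGFP cells BCL2 was at 9.24, 8.20 and 9.65 CPM at 6 h and at 4.12, 4.55 and 4.93 CPM at 24 h. It fell by 0.99 on the log2 scale (SE 0.12, adjusted P = 6.37e-07). BCL2L1 was at 79.3, 79.3 and 79.1 CPM at 6 h and at 51.5, 62.4 and 60.6 CPM at 24 h, and it fell by 0.45 (SE 0.13, adjusted P = 0.00961). Neither gene's groups overlapped. These 2 of 7 members compare with 22.3% of all genes that were lower at 24 h. The BCL2L1 call was lost without pGFP replicate 1 at 24 h (-0.37, adjusted P = 0.0614). BCL2 was at 6.85 to 10.2 CPM over all 6 h libraries and at 3.27 to 5.28 CPM over all 24 h libraries, so its levels at the 2 times did not overlap with any vector.

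For BOK and BCL2L1 at 24 h, replicate 1 lay below replicates 2 and 3, which overlapped each other. The ranges of the 5 vectors overlapped for both genes. In replicate 1 of the 5 vectors BOK was at 21.5 to 25.2 CPM, below the 29.8 to 33.2 CPM of replicate 2 and the 28 to 33.1 CPM of replicate 3. BCL2L1 was at 45.6 to 51.5 CPM in replicate 1, against 62.4 to 70.4 CPM in replicate 2 and 56.8 to 63.6 CPM in replicate 3.

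**Figure D5:**
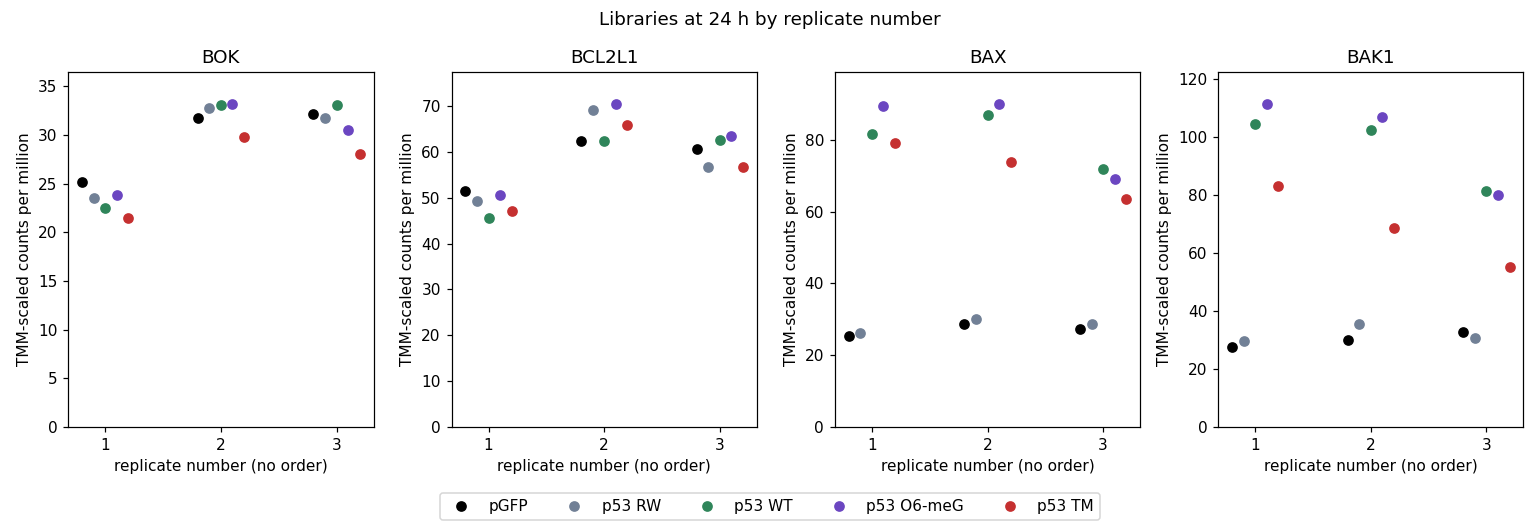
TMM-scaled CPM (y axis, from 0) of BOK, BCL2L1, BAX and BAK1 at 24 h by replicate number (x axis, in no order), with 1 point per library coloured by vector. BOK and BCL2L1 are lowest in replicate 1 with all 5 vectors, whereas for BAX and BAK1 every p53 WT, p53 O6-meG and p53 TM library lies above every pGFP and p53 RW library, with overlap within those sets of vectors.

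For each responding member, 14075 genes with a mean log2 CPM of at least 0 were ranked by likeness of TMM-scaled log2 CPM over the 28 tested libraries. The 3 genes that ran most closely with BAX were TP53I3, DRAM1 and ACTA2 (Pearson r = 0.991, 0.989 and 0.988). For BAK1 they were OTULINL, RALGDS and MAPK11 (r = 0.991, 0.990 and 0.988), and for MCL1 they were CCNG1, SLC35G2 and NTPCR (r = 0.915, 0.901 and 0.899). These libraries share vectors, times and replicate numbers, so the values describe likeness only. Ranked by Spearman's rho, 0 of the 3 genes remained for BAX, 0 for BAK1 and 1 for MCL1.

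The proteins of the BH3-only genes activate the effectors or occupy the prosurvival proteins. Under p53 WT 5 of 8 rose at 6 h, beside 8.68% of all genes, with a median log2 fold change of 0.65 beside 0.02 over all genes, and 6 rose and 1 fell at 24 h, when 20.5% of all genes rose and 14.5% fell, with a median of 1.15 beside 0.01. Under p53 O6-meG 2 of 8 rose at 6 h and 6 of 8 at 24 h, beside 4.32% and 18.1% of all genes. BBC3, which encodes PUMA, rose from a mean of 1.12 to 14.01 CPM at 6 h (adjusted P = 6.15e-13), and PMAIP1, which encodes NOXA, from 40.6 to 77.7 CPM (adjusted P = 0.000178). BID rose from 33.8 to 81.6 CPM at 24 h (adjusted P = 5.96e-10), and BMF fell from 3.15 to 2.02 CPM (adjusted P = 0.0102). In p53 TM cells 1 of 8 rose over pGFP at 6 h and 4 of 8 at 24 h, where 0.192% and 9% of all genes rose. Relative to p53 WT 3 were lower at 6 h and 5 at 24 h, beside 8.14% and 11.9% of all genes. BBC3 was the 1 that rose at 6 h, to 2.39 CPM (adjusted P = 0.0238).

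The list of apoptosome and caspase genes also holds CYCS, which encodes cytochrome c, DIABLO, HTRA2 and the caspase inhibitor gene XIAP. Of its 8 genes, 1 rose under p53 WT at 6 h, a share near the 8.68% of all genes. This was APAF1, the apoptosome scaffold, from 39.4 to 187 CPM (adjusted P = 6.78e-09), which was at 40.5 CPM in p53 TM cells at 6 h. At 24 h 1 rose and 2 fell, where 20.5% of all genes rose and 14.5% fell, with CASP9, the initiator caspase, falling from 16.9 to 10.1 CPM (adjusted P = 2.11e-05). The median log2 fold change of the list was -0.06 at 6 h and -0.04 at 24 h. Among 7 other BCL2 homologues 5 were tested, none rose or fell at 6 h under p53 WT, and BCL2L12 fell at 24 h, from 40.2 to 29.0 CPM (adjusted P = 1.96e-05), the 1 of 5 beside 14.5% of all genes. Among 10 genes for turnover and partners, 2 rose at 6 h, beside 8.68% of all genes, and 5 rose and 1 fell at 24 h, beside 20.5% and 14.5%. FBXW7, part of a ubiquitin ligase that targets MCL1, rose from 33.3 to 62.0 CPM at 24 h (adjusted P = 2.37e-06), and BAG1, a BCL2-binding co-chaperone, rose at both times, from 31.8 to 61.2 CPM at 24 h (adjusted P = 9.3e-09).

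Some members share exonic bases with other annotated genes, and the strand setting of the read counting is not given in the sources used here. BCL2L2 shares 815 bases, 16.8% of its exons, with the readthrough gene BCL2L2-PABPN1 on the same strand, which was itself at no more than 0.352 CPM. On the other strand BCL2L2 shares 315 bases with PPP1R3E, at 2.97 to 5.39 CPM, and 149 bases with HOMEZ, so that 24.8% of its exons are shared on either strand. BCL2L1 shares 1735 bases, 41.3% of its exons, with the antisense gene ABALON, at no more than 0.440 CPM. BOK shares 201 bases with the antisense BOK-AS1, and BAK1 91 bases with GGNBP1, also on the other strand. MCL1 shares 328 bases, 5.27% of its exons, with ADAMTSL4-AS1 on the same strand as MCL1. Values of these 5 genes are uncertain to that extent, and BAX, BCL2 and BCL2A1 share none.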

How the data were processed

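Total RNA libraries (Illumina TruSeq) from sorted H1299 cells were analysed from the raw read counts per gene that the authors deposited, made by them by alignment to hg38 with STAR 2.5.3a and counting over GENCODE v27 genes with featureCounts of Subread 1.5.2. The deposited normalized table, made by the authors with DESeq2 1.20, was not used. Groups were taken from the labels, and 2 libraries with conflicting titles were left out, leaving 28. Counts were fitted with edgeR 4.0.16 in R 4.3.3 (quasi-likelihood test, TMM, filterByExpr, 1 coefficient per group), in place of the Wald test with interaction that the authors used, over 21335 genes. A gene was called where its Benjamini-Hochberg adjusted P, taken across the whole tested table for that comparison, was under 0.05. The filter removed 18024 genes. Levels are TMM-scaled CPM, also divided by merged exon length from GENCODE v44. The script was tested on simulated data with known changes.

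The members, the gene lists and the tests were chosen with earlier results of these data known. The text names all 8 members, genes among the 3 most alike to each responding member, and up to 4 called genes per pathway list and time by smallest P. Alternatives were DESeq2 1.42.0, its size factors in edgeR, no filter, at least 10 counts in every library, only the groups compared, a replicate block, the conflicting libraries under either grouping, and each library left out in turn. Libraries left out of groups with n = 2 leave 1 library, whose spread is taken from the other groups. No replicates agreed within sampling noise (chi-square per degree of freedom of 6.09 or more in 30 pairs). The study describes the libraries as biological triplicates, without saying which steps were repeated separately, and p-values measure the spread between these libraries. The replicate number was checked as a pairing: at 24 h the residuals of 30 of 30 same-numbered pairs correlated above 0.1 (0.182 to 0.612), at 6 h 5 of 9. It was thus taken to pair libraries at 24 h and not at 6 h. The main fit had no block at either time, as the study states no pairing. Errors, intervals and calls at 24 h therefore leave the pairing out unless a block is named. Total counts of 32302699 to 71950532 per library set the precision, and intervals cover 95%. The level of the targeted gene is not reported here. Promoter sequence came from RefSeq for 6 of 8 members, and protein sequence was not used here.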

Additional observations from a re-analysis of the deposited data

Results flagged for a closer look

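The rise of BAX under p53 WT differed between the times, by 0.51 on the log2 scale more at 24 h than at 6 h, and the BAX difference between p53 TM and p53 WT was 0.69 smaller at 24 h. Both rest on a test of the difference itself, given with its limits in the report.

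The 2 libraries left out of the tests for their conflicting titles had levels above all pGFP libraries at 6 h for several members. BAX was at 32.4 CPM in the library labelled p53 O6-meG replicate 2, where p53 O6-meG replicates 1 and 3 gave 52.1 and 57.3 CPM. In the library labelled p53 TM replicate 2, BAX was at 58.2 and BAK1 at 79.4 CPM, beside 29.9 and 34.6 CPM for BAX and 34.8 and 30.2 CPM for BAK1 in the other p53 TM libraries. The same library was at 34.9 CPM for BOK, 19.7 CPM for BCL2L2 and 301 CPM for MCL1, within the range of the tested 6 h libraries. As a share of the p53 WT rise, BAX was at 15.2% in the library labelled p53 O6-meG and at 101% in the library labelled p53 TM.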

How the results depend on the processing

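The count of members called moved by over 1.5 times in these cases. Including the conflicting libraries as labelled left 0 members, from 2, in p53 O6-meG against pGFP at 6 h. The same held for p53 TM against p53 WT and against p53 O6-meG at 6 h. Calls over all genes fell there as well, from 1035 to 73, from 2329 to 16 and from 874 to 0. That inclusion also left 1 (BCL2) from 2 in p53 TM against p53 WT at 24 h. It left 0 from 1 in p53 TM against p53 O6-meG at 24 h and in both tests of change with time. Over all genes these went from 4520 to 3860, from 2144 to 1356, from 1388 to 1022 and from 310 to 14. Fitting only the groups compared gave 0 in p53 TM against p53 WT and against p53 O6-meG at 24 h. It also gave 0 in the added test of the TM difference over time. Over all genes, 1768, 241 and 160 were then called. With no filter on low counts, p53 TM against p53 WT at 24 h gave 1 (BAK1), the p53 WT effect over time 0 and the TM difference over time 2. Of all 39353 genes, 3760, 1063 and 332 were called there. DESeq2 gave 2 for p53 TM against p53 O6-meG at 24 h, with 2548 genes called in all. The other grouping of the conflicting libraries gave 2 for the TM difference over time, with 513 in all. The replicate block gave 5 in p53 O6-meG against pGFP at 6 h (with BOK, BCL2L1 and MCL1). It gave 3 in p53 TM against p53 O6-meG at 24 h and 2 for the TM difference over time. Over all 21335 genes the block raised the calls there from 1035 to 3679, from 2144 to 5391 and from 310 to 1676. At 6 h the block also called BCL2L1 in p53 TM against p53 O6-meG (-0.29, adjusted P = 0.0157), with 2595 genes called in place of 874. At 6 h the numbers were not taken to pair libraries. The block ended no call made without it. No paired analysis of pGFP at 24 h against 6 h was possible because the blocks lie within each time.

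Leaving out 1 library at a time gave 0 to 2 members for p53 TM against p53 WT at 24 h, 0 to 2 against p53 O6-meG, 0 to 1 for the p53 WT effect over time, 1 to 2 for pGFP over time and 0 to 2 for the TM difference over time. The cause of these moves in the count of members called was not tested. Without TMM scaling the BAK1 share of the p53 WT rise in p53 TM cells at 6 h was -0.65% in place of 2.10%, within its spread. No log2 fold change of a called member changed sign under any alternative. The 2 libraries per group in p53 O6-meG and p53 TM at 6 h, and the low counts of BCL2 and BCL2A1, limit what could be detected.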
